A study of Mus musculus with 12 samples.

Results

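Notch target genes and arterial endothelial genes were examined in mouse fat grafts, as a set of 10 genes taken by symbol from a table of 19547 genes: Hes1, Hey1, Hey2, Heyl, Nrarp, Lfng, Mfng, Efnb2, Gja4 and Gja5. All 10 were in the table, and all 10 were among the 18551 genes kept by the filter on low counts. The genes were taken by name, without a threshold on a measured value, but the names were chosen with earlier results of these data known. The grafts came from wild type C57BL/6 mice, 16 weeks of age by the labels, and were sampled at 8 weeks. The control group held fat grafts alone. The CAL group (cell-assisted lipotransfer) held grafts with ASC added, the usual abbreviation of adipose-derived stem or stromal cells. The CAL_Dll4i group held grafts with ASC added and with inhibition of Dll4, by a means that the labels do not give. Each group had 4 libraries, and the labels do not say that each came from a mouse of its own, so the p-values measure the spread between these samples, which may be technical in part.

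Notch is a receptor that is cut when a ligand on a neighbouring cell binds it. The released intracellular part enters the nucleus, joins the DNA-binding protein RBPJ and turns on target genes such as the Hes and Hey repressors. In blood vessels the ligand Dll4 marks tip and arterial endothelial cells, and its signal restrains sprouting and favours arterial identity. In smooth muscle cells and pericytes, together called mural cells, Notch signalling also switches on Heyl and other targets. Because RNA came from whole grafts, fewer cells of a type and less RNA per cell cannot be told apart.

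Hes1, Hey1, Hey2 and Heyl encode basic helix-loop-helix repressors and are the classical direct Notch targets. Nrarp encodes an ankyrin-repeat protein that is induced by Notch and limits it. Lfng and Mfng encode Fringe sugar transferases, which modify the Notch receptors and alter their choice between Delta and Jagged ligands. Efnb2 encodes ephrin-B2, the arterial partner of the venous receptor EphB4. Gja4 and Gja5 encode connexin 37 and connexin 40, gap junction proteins of arterial endothelium.

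The genes lie at separate places in the mouse genome (RefSeq, GRCm38.p6, the assembly behind mm10). Hes1 spans chr16:30065357-30067796 on the plus strand, Hey1 chr3:8663359-8667038 on the minus strand, Hey2 chr10:30832359-30842783 on the minus strand and Heyl chr4:123233556-123249870 on the plus strand. Nrarp spans chr2:25180758-25183339 on the plus strand, Lfng chr5:140607341-140615545 on the plus strand and Mfng chr15:78755882-78773516 on the minus strand. Efnb2 spans chr8:8617235-8661242 on the minus strand, Gja4 chr4:127311420-127314039 on the minus strand and Gja5 chr3:97032402-97053634 on the plus strand. Antisense genes overlap Nrarp and Gja5 in the GENCODE annotation, and E230020D15Rik, Gm45074 and Gm45073 overlap Efnb2 on its own strand. No source used here says whether reads were counted by strand.

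Promoter sequence is shown for Nrarp and Efnb2, whose CAL libraries all lay below control, and for Lfng and Hey2, whose windows held the longer RBPJ motif and whose groups overlapped. RefSeq windows, from 250 bases before each start to 50 after it, were found for 6 of the 10 genes: Hey2, Nrarp, Lfng, Efnb2, Gja4 and Gja5. Both strands were searched for the RBPJ core TGGGAA, for its longer form GTGGGAA, which contains the core, and for CACGTG, an E-box bound by Hes and Hey proteins. Each run below goes from base -250 to base -31 before the start, 5′ to 3′ on the gene's own strand, and capitals mark the matches.

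Nrarp (chr2:25180508-25180727, plus strand): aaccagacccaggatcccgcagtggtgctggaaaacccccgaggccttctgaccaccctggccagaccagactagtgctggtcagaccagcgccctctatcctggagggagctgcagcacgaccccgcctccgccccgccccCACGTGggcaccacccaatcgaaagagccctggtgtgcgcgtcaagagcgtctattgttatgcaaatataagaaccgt
Efnb2 (chr8:8661273-8661492, minus strand): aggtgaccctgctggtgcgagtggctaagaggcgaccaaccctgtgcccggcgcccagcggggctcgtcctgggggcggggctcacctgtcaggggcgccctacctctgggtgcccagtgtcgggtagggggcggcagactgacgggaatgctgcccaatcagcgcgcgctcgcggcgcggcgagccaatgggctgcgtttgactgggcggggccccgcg
Lfng (chr5:140607091-140607310, plus strand): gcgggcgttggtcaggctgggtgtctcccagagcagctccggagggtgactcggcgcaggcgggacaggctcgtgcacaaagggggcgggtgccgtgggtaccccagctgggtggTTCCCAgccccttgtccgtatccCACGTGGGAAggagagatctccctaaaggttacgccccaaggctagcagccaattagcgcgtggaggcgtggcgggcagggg
Hey2 (chr10:30842814-30843033, minus strand): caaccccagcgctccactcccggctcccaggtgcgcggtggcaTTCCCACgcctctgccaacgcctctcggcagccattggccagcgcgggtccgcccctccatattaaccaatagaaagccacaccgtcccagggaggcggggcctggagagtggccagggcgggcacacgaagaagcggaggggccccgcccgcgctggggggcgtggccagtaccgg
Hey2, around the start (chr10:30842781-30842793, minus strand, bases -10 to 3): tgcagcGTGGGAA

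Nrarp held 1 CACGTG at -108 to -103 and neither RBPJ form. Efnb2 held none of the 3 motifs, and neither did Gja4 or Gja5. In Lfng a TGGGAA on the opposite strand lay at -135 to -130, and GTGGGAA lay at -109 to -103, sharing 3 letters with a CACGTG at -112 to -107. Hey2 held GTGGGAA at -207 to -201 on the opposite strand and again at -4 to 3, across the start. Among all 32851 RefSeq windows of the same length, 25.6% held TGGGAA, 6.38% held GTGGGAA and 7.15% held CACGTG, and 0.256% held GTGGGAA at least 2 times. These are matches of letters, and binding was not measured.

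The libraries held 55883051 to 70804141 estimated counts in the genes of the table. Adipocyte markers (12 of 12 in the table) and pan-endothelial markers (20 of 20) were present in every library, as the labelled tissue has them. Their summed levels are in CPM, counts scaled to a common library size by TMM, a unit used below for each gene's level per library. Adipocyte markers summed to 1068 to 2349 CPM in control, 2376 to 3456 in CAL and 1799 to 2336 in CAL_Dll4i, so that CAL lay above both other groups without overlap. Pan-endothelial markers summed to 615 to 752, 514 to 688 and 584 to 691, and mural markers (12 of 13 in the table; Cnn1 is not among its rows) to 432 to 617, 391 to 504 and 486 to 589. Keratinocyte and epithelial markers (8 of 10 in the table) ran from 10.4 to 289 CPM in control, 10.5 to 103 in CAL and 10.8 to 502 in CAL_Dll4i. Skeletal muscle markers (5 of 11 in the table) reached 109 and 225 CPM in CAL replicates 1 and 2 and 396 in CAL_Dll4i replicate 3, against 11.6 CPM or less in the other 9. For some results, values without those 3 libraries are also given. Such values rest on CAL replicates 3 and 4 alone for the CAL group, and on replicates 1, 2 and 4 for CAL_Dll4i.

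Levels of different genes were compared on the deposited TPM values, which are scaled for transcript length. Lfng was the highest of the 10, with a mean of 45.8 TPM in control, 49.0 in CAL and 42.7 in CAL_Dll4i, above 76.3% of all genes in the table. Mfng followed with 16.9, 20.8 and 17.1 TPM, and Hes1 with 11.6, 8.62 and 12.4 TPM. Nrarp stood at 7.64, 5.29 and 7.50 TPM. The Fringe genes and these targets thus made up the upper end, and the other 6 genes lay below 5 TPM on average in each group.

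Efnb2 averaged 4.25 TPM in control, 2.44 in CAL and 3.81 in CAL_Dll4i. Gja4 averaged 2.79, 2.94 and 3.39 TPM, Heyl 2.32, 2.03 and 2.63, and Hey1 1.63, 1.93 and 1.89. Gja5, at 1.06, 0.774 and 0.857 TPM, and Hey2, at 0.534, 0.614 and 0.557 TPM, were the lowest, and Hey2 lay above 13.5% of all genes. In control the 4 steps from Lfng through Mfng, Hes1 and Nrarp to Efnb2 did not overlap between neighbouring genes, and every later pair of neighbours did. In CAL Efnb2 took a place below Gja4, with overlapping ranges. In CAL_Dll4i the ranges of Mfng and Hes1 overlapped, and so did those of Hes1 and Nrarp. The plot of deposited TPM shows the order.

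**Figure D1:**
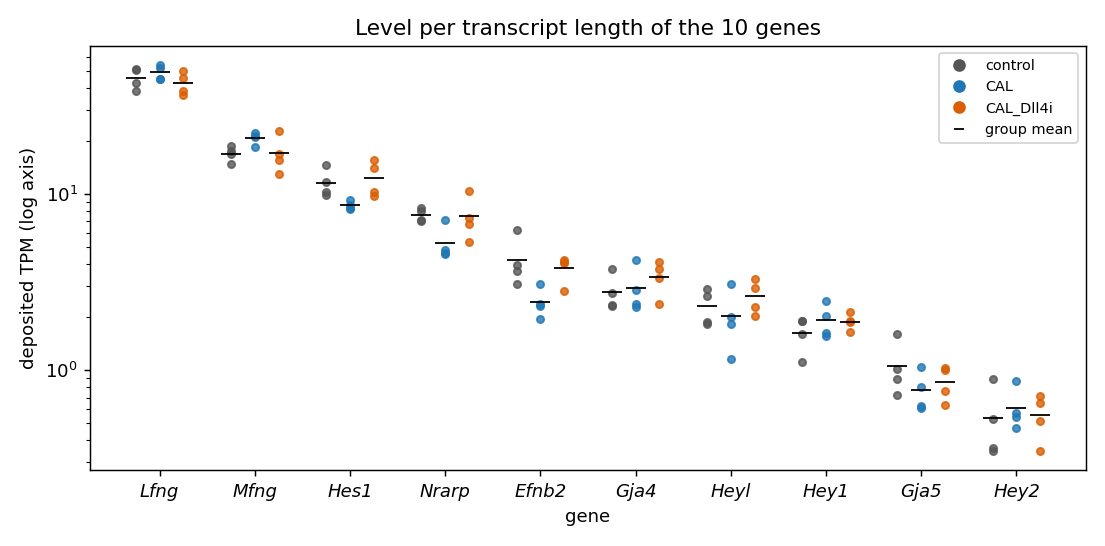
Deposited TPM (log axis) of the 10 genes in all 12 libraries, 4 points per group, with group means as black dashes. Lfng stood at 42.7 to 49.0 TPM by group mean and Hey2 at 0.534 to 0.614.

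The added cells were examined by comparing CAL with control. Among the repressors, Hes1 was at 6.08, 6.92, 8.58 and 5.98 CPM in control replicates 1 to 4, at 5.01, 5.71, 5.14 and 5.02 in CAL and at 8.99, 9.32, 6.15 and 6.59 in CAL_Dll4i. All 4 CAL libraries lay below all 8 others. The share of all genes that did so was not counted. Taken 1 comparison at a time, CAL lay below control without overlap for 3.75% of all genes, and CAL_Dll4i above CAL for 1.58%. The group means were 6.89 ± 1.20, 5.22 ± 0.333 and 7.77 ± 1.62 CPM (SD, n = 4 each). The CAL group was also the tightest, and the CAL_Dll4i libraries split into a pair near 9 CPM and a pair near control.

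Nrarp, the feedback inhibitor, was at 7.49, 8.54, 7.46 and 8.93 CPM in control, at 7.40, 5.05, 5.35 and 4.93 in CAL and at 11.9, 5.76, 7.67 and 8.48 in CAL_Dll4i. CAL lay below control without overlap, although CAL replicate 1 came close to the lowest control library. CAL_Dll4i overlapped both groups, since its replicate 2 was below CAL replicate 1 and its replicate 1 was the highest of all 12. The means were 8.10 ± 0.748, 5.68 ± 1.16 and 8.45 ± 2.55 CPM (SD, n = 4 each).

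Efnb2, the arterial ephrin, was at 7.59, 8.04, 13.5 and 8.32 CPM in control, at 5.23, 6.77, 5.27 and 4.08 in CAL and at 9.42, 9.13, 6.83 and 9.24 in CAL_Dll4i. Again all 4 CAL libraries lay below all 8 others, a separation whose share among all genes was not counted. CAL_Dll4i replicate 3 was only just above CAL replicate 2. Control replicate 3 stood far above the other control libraries. The means were 9.37 ± 2.80, 5.34 ± 1.10 and 8.66 ± 1.22 CPM (SD, n = 4 each).

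Mfng, the Fringe gene, had the opposite order. It was at 13.3, 11.4, 12.8 and 14.5 CPM in control, at 15.8, 14.7, 16.9 and 17.7 in CAL and at 12.9, 13.1, 18.4 and 10.9 in CAL_Dll4i. CAL lay above control without overlap. In CAL_Dll4i 3 libraries lay below all of CAL, and replicate 3 was the highest of all 12. The means were 13.0 ± 1.26, 16.3 ± 1.27 and 13.8 ± 3.20 CPM (SD, n = 4 each).

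**Figure D2:**
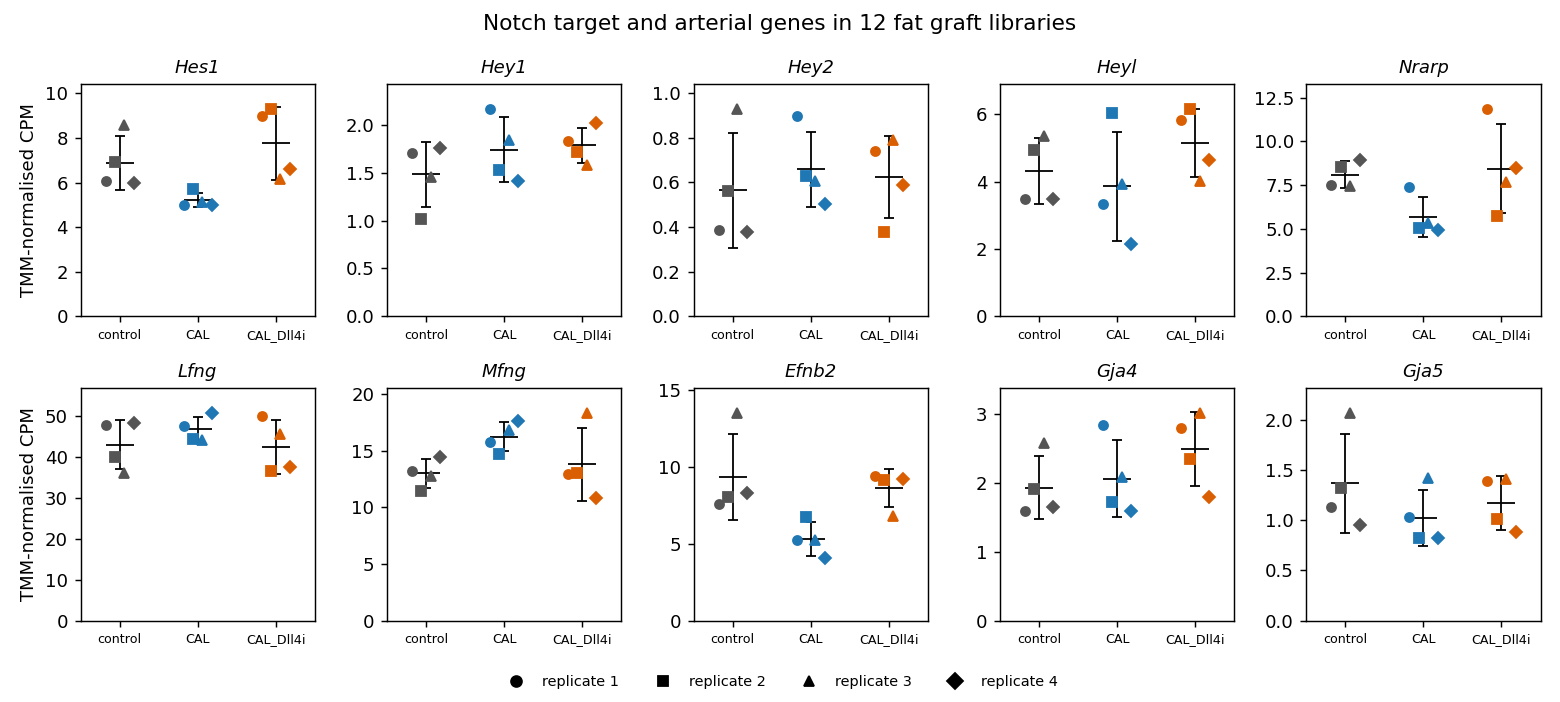
TMM-normalised CPM of each gene in the 12 libraries, by group and replicate, with the group mean (dash) and SD (bar) over 4 libraries. The CAL libraries of Hes1 (5.01 to 5.71 CPM) and Efnb2 (4.08 to 6.77 CPM) lie below all others. The share of all genes with this separation was not counted.

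In CAL against control, edgeR's quasi-likelihood test called none of the 10 genes at a Benjamini-Hochberg adjusted p under 0.05 over all genes tested, where it called 0.00539% of all genes as higher and 0% as lower. At an unadjusted p under 0.05, 3 members were lower (Efnb2, Nrarp and Hes1) and 1 was higher (Mfng), against 7.57% and 7.01% of all genes tested. The count of 3 lower was 1 without CAL replicate 3 or CAL replicate 4, and 2 without control replicate 2, 3 or 4, CAL replicate 1, CAL replicate 2 or the 3 muscle RNA libraries. The 1 higher, Mfng, missed that threshold without control replicate 1, 2 or 3 or CAL replicate 1, 3 or 4. Groups did not overlap for the same 3 lower members and for Mfng, against 3.75% and 3.61% of all genes. Over the 10 genes, 5 estimates were higher and 5 lower, against 48.4% and 51.6% of all genes. The members' median was -0.03 on the log2 scale, and that of all genes -0.01.

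Efnb2 had a log2 fold change of -0.81 (SE 0.205, 95% interval -1.26 to -0.37) in CAL against control, a level 0.569 times that of control. Its adjusted p was 0.166 with edgeR and 0.0124 with DESeq2, which called 1 member, Efnb2, as lower and 0 as higher, against 1.59% and 1.99% of all genes. Over all alternatives its adjusted p ran from 0.0124 to 0.376. Without control replicate 3 the log2 fold change was -0.58. It was -1.004 when the 3 muscle RNA libraries were left out, which leaves only replicates 3 and 4 in CAL.

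Nrarp had a log2 fold change of -0.51 (SE 0.201, 95% interval -0.95 to -0.08, edgeR adjusted p = 0.281). Without CAL replicate 1 it was -0.67, and without the muscle RNA libraries -0.66. Hes1 had -0.40 (SE 0.159, 95% interval -0.75 to -0.05, edgeR adjusted p = 0.285). Without control replicate 3 Hes1 was at -0.28 with an unadjusted edgeR p of 0.0967, and without the muscle RNA libraries at -0.44 with an unadjusted edgeR p of 0.0501. Mfng had 0.32 (SE 0.142, 95% interval 0.01 to 0.63, edgeR adjusted p = 0.324), and 0.41 without the muscle RNA libraries. The other 6 genes ran from -0.41 for Gja5 to 0.23 for Hey1, with unadjusted edgeR p from 0.159 to 0.702.

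The inhibition of Dll4 on top of added cells was examined by comparing CAL_Dll4i with CAL, which shares the CAL libraries with the comparison above, so low CAL values enter both. Dll4 itself was at 5.53, 5.68, 6.95 and 4.97 CPM in control, at 4.03, 4.22, 3.60 and 3.01 in CAL and at 4.95, 3.98, 4.35 and 4.39 in CAL_Dll4i. All control libraries lay above all others, replicate 4 only just above CAL_Dll4i replicate 1. Since the means of inhibition is not given, the level of Dll4 RNA does not check it.

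For this comparison edgeR called 0% of all genes in either direction and no member. DESeq2 called 0% of all genes as higher and 0.0058% as lower, and no member. At an unadjusted p under 0.05, 3 members were higher (Hes1, Efnb2 and Nrarp), against 4.47% of all genes, and 0 were lower, against 2.95%. The count of 3 higher was 2 without CAL_Dll4i replicate 1 and 3 or 4 without any other library. Groups did not overlap for Hes1 and Efnb2 as higher and for no member as lower, against 1.58% and 1.76% of all genes. Over the 10 genes, 7 estimates were higher and 3 lower, against 51.3% and 48.7% of all genes. The members' median was 0.23 on the log2 scale, and that of all genes 0.00.

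Efnb2 had a log2 fold change of 0.70 (SE 0.205, 95% interval 0.25 to 1.14, edgeR adjusted p = 0.659) in CAL_Dll4i against CAL, a level 1.62 times that of CAL. It was at 0.99 without the muscle RNA libraries, with only replicates 3 and 4 left in CAL, and at 0.46 with mural marker level as a covariate. Hes1 had 0.57 (SE 0.159, 95% interval 0.23 to 0.92, edgeR adjusted p = 0.659), a level 1.49 times that of CAL, and 0.71 without the muscle RNA libraries. Nrarp had 0.57 (SE 0.201, 95% interval 0.14 to 1.01, edgeR adjusted p = 0.659), and 0.76 without those libraries. Without CAL_Dll4i replicate 1, the highest library, Nrarp was at 0.36 with an unadjusted edgeR p of 0.0588. Mfng was at -0.24 with all libraries, at -0.41 with an unadjusted edgeR p of 0.00285 without CAL_Dll4i replicate 3, and at -0.49 without the muscle RNA libraries.

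CAL_Dll4i against control compares the groups at either end, and uses none of the CAL libraries in its estimate. No member was called by edgeR, where 0% of all genes were called in either direction. DESeq2 called 0.272% of all genes as higher and 0.0598% as lower, and no member. Of the 10 estimates 7 were higher and 3 lower, against 49.6% and 50.4% of all genes, with a members' median of 0.11 on the log2 scale. At an unadjusted p under 0.05, 0 members were higher, against 3.86% of all genes, and 0 lower, against 3.06%. No member had groups without overlap, against 2.41% and 2.35% of all genes. Hes1 had a log2 fold change of 0.17 (95% interval -0.17 to 0.52), Nrarp 0.06 (-0.38 to 0.49), Efnb2 -0.11 (-0.56 to 0.33) and Mfng 0.09 (-0.22 to 0.39). These intervals do not show that CAL_Dll4i and control were alike.

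A single test of any difference among the 3 groups gave unadjusted p-values with edgeR of 0.00459 for Efnb2, 0.0112 for Hes1 and 0.0306 for Nrarp, and 0.0978 or more for the other 7. At that threshold 10.7% of all genes passed. The adjusted p-values were 0.365, 0.380 and 0.422 with edgeR. Without the muscle RNA libraries the unadjusted edgeR p-values were 0.00695 for Efnb2, 0.0226 for Hes1, 0.0434 for Nrarp and 0.00745 for Mfng, with adjusted values of 0.453 or more. DESeq2 gave Efnb2 0.0271 and called 2.1% of all genes.

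**Figure D3:**
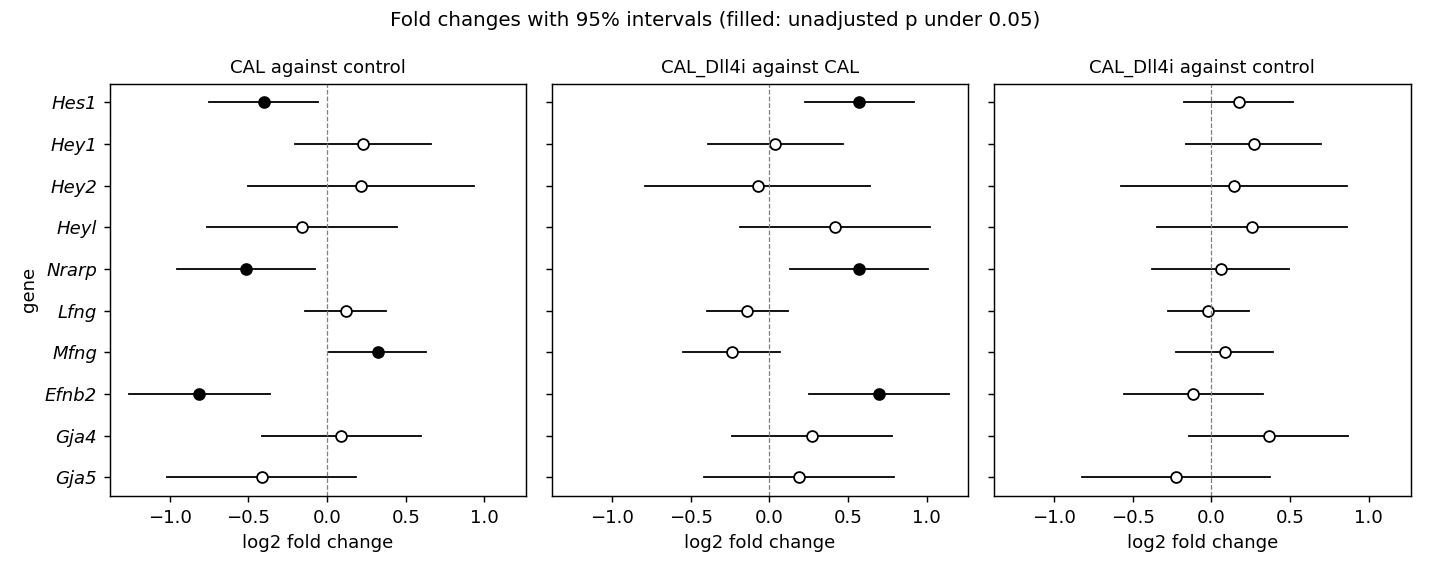
Log2 fold changes (points) with 95% intervals (lines) from edgeR in the 3 comparisons, filled where the unadjusted p was under 0.05. Efnb2 was at -0.81 in CAL against control, 0.70 in CAL_Dll4i against CAL and -0.11 in CAL_Dll4i against control.

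The other 3 repressors had overlapping groups in every comparison. Hey1 was at 1.71, 1.01, 1.46 and 1.75 CPM in control, 2.17, 1.53, 1.85 and 1.41 in CAL and 1.83, 1.72, 1.58 and 2.02 in CAL_Dll4i. Control replicate 2 was the lowest library. The log2 fold changes were 0.23 (95% interval -0.20 to 0.66) in CAL against control and 0.04 (-0.39 to 0.47) in CAL_Dll4i against CAL.

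Heyl, the Hey family member best known from mural cells, was at 3.48, 4.94, 5.37 and 3.48 CPM in control, 3.34, 6.03, 3.94 and 2.16 in CAL and 5.83, 6.17, 4.02 and 4.64 in CAL_Dll4i. CAL held both the lowest library and the second highest, and the means of 4.32 ± 0.984, 3.87 ± 1.62 and 5.16 ± 1.01 CPM (SD, n = 4 each) had the same order as those of Hes1. The log2 fold changes were -0.16 (95% interval -0.76 to 0.44) in CAL against control and 0.42 (-0.19 to 1.02) in CAL_Dll4i against CAL. Without the muscle RNA libraries they were -0.50 and 0.86, with unadjusted edgeR p-values of 0.1155 and 0.0199. Only replicates 3 and 4 are then left in CAL, and replicate 4 is the lowest library.

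Hey2, the arterial member of the family, was the least abundant, with 23 to 62 estimated counts per library. It was at 0.389, 0.562, 0.930 and 0.379 CPM in control, 0.895, 0.629, 0.606 and 0.502 in CAL and 0.739, 0.378, 0.790 and 0.589 in CAL_Dll4i. Its groups overlapped fully. Its spread between replicates was the widest of the 10, with a square root of the dispersion of 0.306, against 0.144 for Lfng. Its 95% interval in CAL against control ran from -0.50 to 0.93.

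Lfng, the other Fringe gene, was at 47.6, 40.0, 35.9 and 48.1 CPM in control, 47.5, 44.2, 44.0 and 50.7 in CAL and 50.01, 36.5, 45.4 and 37.4 in CAL_Dll4i. Its groups overlapped. It had the narrowest intervals, with log2 fold changes of 0.12 (95% interval -0.14 to 0.38) in CAL against control and -0.14 (-0.40 to 0.12) in CAL_Dll4i against CAL.

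Of the arterial connexins, Gja4 was at 1.59, 1.91, 2.58 and 1.66 CPM in control, 2.84, 1.72, 2.08 and 1.60 in CAL and 2.79, 2.35, 3.02 and 1.80 in CAL_Dll4i. Gja5 was at 1.13, 1.32, 2.07 and 0.954 CPM in control, 1.03, 0.826, 1.42 and 0.821 in CAL and 1.39, 1.01, 1.41 and 0.883 in CAL_Dll4i. Both had overlapping groups in every comparison. The means of Gja5 (1.37 ± 0.491, 1.02 ± 0.280 and 1.17 ± 0.266 CPM, SD, n = 4 each) had the same order as those of Efnb2, and those of Gja4 (1.93 ± 0.453, 2.06 ± 0.559 and 2.49 ± 0.540 CPM) did not. Whether either differed from Efnb2 was not tested. Gja5 was at -0.41 (95% interval -1.02 to 0.19) on the log2 scale in CAL against control. It was at -0.14 without control replicate 3 and at -0.29 without the muscle RNA libraries.

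Single libraries recurred at the ends of the ranges. Control replicate 3 was the highest control library for 6 genes (Hes1, Hey2, Heyl, Efnb2, Gja4 and Gja5), and it also had the highest summed endothelial (752 CPM) and mural (617 CPM) markers of all 12 libraries. CAL replicate 4 was the lowest CAL library for 7 genes, with the lowest mural sum of all 12 (391 CPM) and the highest adipocyte sum (3456 CPM). CAL_Dll4i replicate 3, one of the libraries with muscle RNA, was the lowest of its group for Hes1, Hey1, Heyl and Efnb2 and the highest for Hey2, Mfng, Gja4 and Gja5.

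Per 1000 CPM of pan-endothelial markers, Efnb2 was at 14.1 ± 2.66 in control, 9.16 ± 1.91 in CAL and 13.8 ± 1.56 in CAL_Dll4i (SD, n = 4 each). Each covariate used was the mean log2 CPM of a marker list, not its sum. With the endothelial covariate the log2 fold changes of Efnb2 were -0.64 in CAL against control and 0.60 in CAL_Dll4i against CAL. With the mural covariate they were -0.65 and 0.46. Hes1 per 1000 endothelial CPM was at 10.5 ± 0.879, 9.01 ± 1.19 and 12.4 ± 2.505. With the endothelial covariate Hes1 was at -0.30 in CAL against control, with an unadjusted edgeR p of 0.0819, and at 0.51 in CAL_Dll4i against CAL. With the mural covariate it was at -0.32, with an unadjusted edgeR p of 0.0595, and at 0.44. Both genes thus kept their direction per 1000 endothelial CPM and with either covariate. Per 1000 endothelial CPM, Hes1 in CAL (7.28 to 9.99) overlapped control (9.71 to 11.4), unlike its CPM. Efnb2 in CAL (7.48 to 11.3) stayed below control (12.1 to 18.0). With either covariate Hes1 no longer had an unadjusted edgeR p under 0.05 in CAL against control. Mfng in CAL against control was at 0.28 with the endothelial covariate and 0.29 with the mural covariate, with unadjusted edgeR p-values of 0.0905 and 0.0761. Nrarp in CAL_Dll4i against CAL was at 0.48 with the mural covariate, with an unadjusted edgeR p of 0.0550. The part of the adipocyte sum, which was highest in CAL, was not tested.

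Across the 12 libraries each gene was compared with 4 marker sums, both as log2 CPM, 40 relations in all. The sums were those of pan-endothelial, mural, B cell, and keratinocyte and epithelial markers, and no other sum was compared. Of these 40, 3 passed a Benjamini-Hochberg adjusted permutation p of 0.05 by Pearson's r, all with the mural sum, and none passed by Spearman's rho. For Efnb2 and mural markers r was 0.85 (permutation p = 0.00075, adjusted 0.0193) and rho 0.80 (permutation p = 0.00326, adjusted 0.114), with r = 0.64 without the 2 libraries farthest from the median mural sum. For Hes1 r was 0.82 (permutation p = 0.00111, adjusted 0.0193) and rho 0.73 (permutation p = 0.00898, adjusted 0.114), with r = 0.77 without those 2 libraries. For Heyl r was 0.81 (permutation p = 0.00145, adjusted 0.0193) and rho 0.71 (permutation p = 0.0128, adjusted 0.114), with r = 0.68. After each group's mean was removed, r was 0.87 for Efnb2, 0.72 for Hes1 and 0.76 for Heyl, so the relation was also present within groups. Without the 3 muscle RNA libraries r was 0.91 for Efnb2, 0.90 for Hes1 and 0.90 for Heyl over 9 libraries. The mural list holds Notch3 and Pdgfrb, which are themselves known Notch targets and carry a large part of its sum. Pdgfrb averaged 210, 184 and 230 CPM in control, CAL and CAL_Dll4i, and Notch3 74.6, 66.7 and 83.8 CPM. The whole mural sum averaged 517, 459 and 545 CPM. Whether the relation holds without these genes was not tested. Hey1 had an r of 0.04 with the mural sum. With the pan-endothelial sum r was 0.69 for Efnb2 (permutation p = 0.0136, adjusted 0.136) and 0.63 for Nrarp (permutation p = 0.0245, adjusted 0.172). It was below 0 for Lfng (-0.25) and Mfng (-0.55). Whether the relation of Efnb2 is closer to mural than to endothelial markers was not tested.

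**Figure D4:**
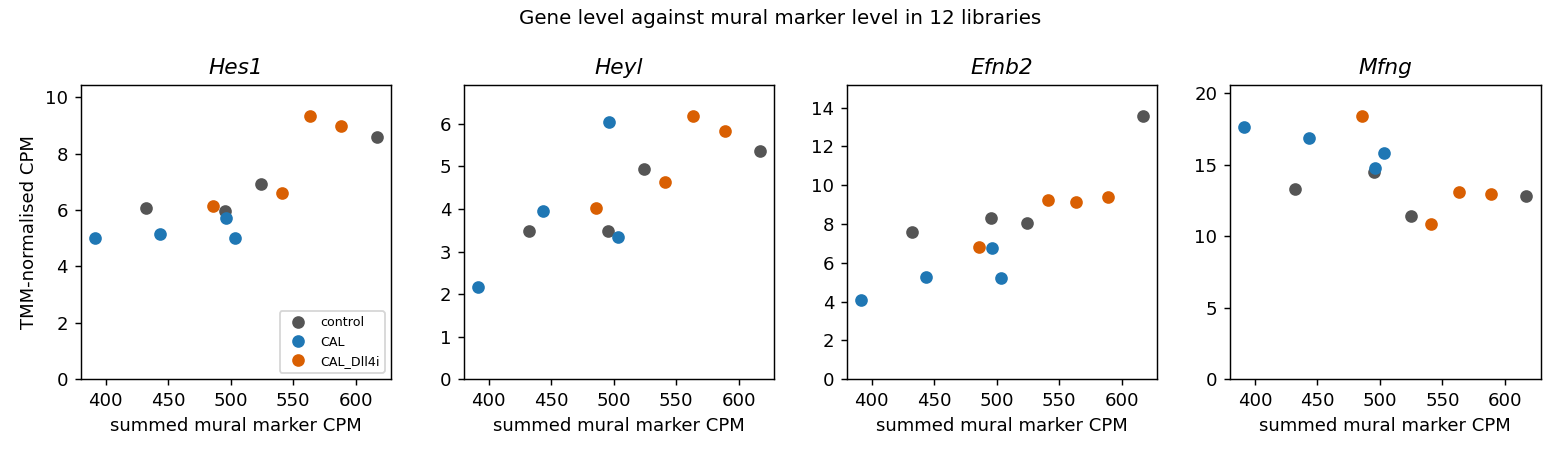
TMM-normalised CPM of Hes1, Heyl, Efnb2 and Mfng against the summed CPM of 12 mural markers, 1 point per library, coloured by group. Hes1, Heyl and Efnb2 lie higher where the mural sum is higher (r of log2 values = 0.82, 0.81 and 0.85), and Mfng has r = -0.62 (adjusted permutation p = 0.178).

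The 10 genes did not vary as a block. Over the 45 pairs, r of log2 CPM across the 12 libraries ran from -0.72 to 0.84 with a median of 0.17, and 15 pairs were below 0. These are descriptions over libraries that share their scaling. Hes1 and Efnb2 had the highest r (0.84), followed by Hes1 with Heyl (0.74), Heyl with Efnb2 (0.72) and Hey2 with Gja4 (0.71). Mfng with Efnb2 had the lowest (-0.72).

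Of all genes tested, Tead1 (r = 0.97) and Ralgps1 (0.96) followed Efnb2 most closely over the 12 libraries, and Rem1 (0.92) and 9530059O14Rik (0.91) followed Hes1. For Nrarp they were Rgs12 (0.90) and Mxd1 (0.89), for Heyl Irf2bpl (0.95) and Fkbp1a (0.94), and for Mfng Ccdc69 (0.92) and Cd300ld4 (0.87). Lfng was followed by Wdhd1 (0.95) and Ndor1 (0.94). With 12 libraries and 18551 genes, high values of r arise in number, and no p is given.

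The rest of the pathway was read from lists of Notch receptors, ligands and core factors, of other targets, and of arterial and venous endothelial genes. Of 29 Notch pathway genes tested, 8 had higher and 21 lower estimates in CAL against control, against 48.4% and 51.6% of all genes. Their median was -0.06 on the log2 scale. At an unadjusted edgeR p under 0.05, 5 were lower, against 7.57% of all genes. They were Dll4 (-0.64), Jag1 (-0.50), the endothelial receptor Notch4 (-0.37), the glucosyltransferase Poglut1 (-0.22) and the coactivator Maml1 (-0.18). Dtx2, a Deltex ligase, was the 1 higher gene (0.22), against 7.01% of all genes. edgeR called none of them, with adjusted p of 0.132 or more. DESeq2 called Dll4 (adjusted p = 0.00285) and Poglut1 (adjusted p = 0.0208) as lower, against 1.59% of all genes.

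In CAL_Dll4i against CAL, 21 of the 29 estimates were higher and 8 lower, against 51.3% and 48.7% of all genes, with a median of 0.04. At an unadjusted edgeR p under 0.05, 3 were higher, against 4.47% of all genes, and 0 lower, against 2.95%. Those higher were the ligands Jag2 (0.61) and Jag1 (0.46) and the Deltex gene Dtx3 (0.17). In CAL_Dll4i against control 2 were lower at that threshold, Dll4 (-0.39) and Poglut1 (-0.15), against 3.06% of all genes, and 0 higher, against 3.86%. None of these was called by either tool.

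Of 17 other arterial genes tested, 14 estimates were lower in CAL against control, with a median of -0.34, and 7 were lower at an unadjusted edgeR p under 0.05, against 7.57% of all genes: Unc5b (-0.84), Bmx (-0.73), Dll4 (-0.64), Vegfc (-0.57), Jag1 (-0.50), Cxcr4 (-0.46) and Fbln5 (-0.34). edgeR called 0 and DESeq2 called Dll4, Unc5b and Vegfc, against 1.59% of all genes as lower. Unc5b encodes a netrin receptor, Bmx a tyrosine kinase of arterial endothelium and Vegfc a lymphatic growth factor. In CAL_Dll4i against CAL, 15 of 17 were higher, with a median of 0.21, and 5 were higher at an unadjusted edgeR p under 0.05, against 4.47% of all genes: Unc5b (0.62), Bmx (0.61), Jag1 (0.46), Vegfc (0.45) and Cxcl12 (0.30). Neither tool called any. Dll4 and Jag1 stand in both lists. In CAL_Dll4i against control 13 of 17 arterial estimates were lower and 4 higher, against 50.4% and 49.6% of all genes, with a median of -0.12. At an unadjusted edgeR p under 0.05, Epas1 (0.31) was higher and Dll4 (-0.39) lower, against 3.86% and 3.06% of all genes. Neither gene was called by either tool. The pan-endothelial and mural lists moved beside the arterial list, and their part in it was not tested. The 20 pan-endothelial genes had 14 lower estimates in CAL against control (median -0.12) and 14 higher ones in CAL_Dll4i against CAL (median 0.08). The 12 mural genes tested had 8 lower estimates in CAL against control (median -0.17) and 10 higher ones in CAL_Dll4i against CAL (median 0.27). Lymphatic endothelial genes, 7 in number, had 6 higher estimates and 1 lower in CAL against control (median 0.70), against 48.4% and 51.6% of all genes. At an unadjusted edgeR p under 0.05, 0 were higher and 1 was lower, against 7.01% and 7.57% of all genes. Their sum ran from 115 to 154 CPM in control and from 83.0 (replicate 3) to 187 in CAL. In CAL_Dll4i against CAL all 7 estimates were higher (median 0.42), 1 at that threshold, against 4.47% of all genes.

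Of 12 venous genes tested, 6 estimates were higher and 6 lower in CAL against control, 0 with an unadjusted edgeR p under 0.05 in either direction. In CAL_Dll4i against CAL 3 were higher at that threshold, against 4.47% of all genes. They were Sele (1.07), the venous regulator Nr2f2 (0.33) and Ephb4 (0.28), the receptor of ephrin-B2. In CAL_Dll4i against control Nr2f2 (0.44) and Vwf (0.31) were higher at that threshold, against 3.86% of all genes. Vcam1 (-0.22) was lower, against 3.06%. Over the 3 comparisons edgeR called none of the 12 venous genes, with adjusted p of 0.419 or more, and DESeq2 none.

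Of 13 other Notch targets tested, 5 estimates were higher and 8 lower in CAL against control. At an unadjusted edgeR p under 0.05, 1 was higher and 1 lower, against 7.01% and 7.57% of all genes. In CAL_Dll4i against CAL 2 were higher at that threshold and 0 lower, against 4.47% and 2.95%. The cell cycle inhibitor Cdkn1a was lower in CAL against control (-0.51, edgeR adjusted p = 0.194). DESeq2 called it there (adjusted p = 0.0457), against 1.59% of all genes as lower. Cdkn1a was higher in CAL_Dll4i against CAL (0.40, edgeR adjusted p = 0.659). Gata2 was higher in CAL against control (0.78, edgeR adjusted p = 0.325). Next by p in that comparison were Ccnd1 (-0.25) and Snai2 (-0.18), with unadjusted edgeR p-values of 0.0569 and 0.0739. Pdgfrb, a mural gene, was higher in CAL_Dll4i against CAL (0.32, edgeR adjusted p = 0.659). In CAL_Dll4i against control 0 of the 13 had an unadjusted edgeR p under 0.05 in either direction. Hes2, Hes3, Hes5 and Hes7 were not analysed here.

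**Figure D5:**
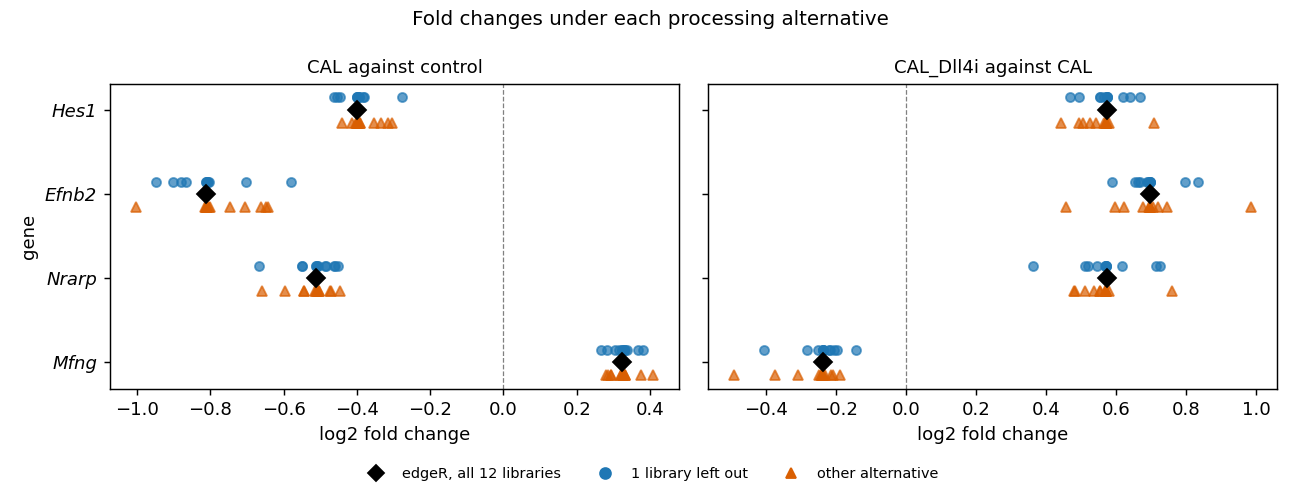
Log2 fold changes of Hes1, Efnb2, Nrarp and Mfng under each processing alternative: diamonds, edgeR on all 12 libraries; circles, 1 library left out; triangles, other alternatives. None of the 4 crossed 0 in either comparison, and Efnb2 ran from -1.004 to -0.58 in CAL against control and from 0.46 to 0.99 in CAL_Dll4i against CAL.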

How the data were processed

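Gene expression was measured by RNA sequencing of 12 fat graft samples, 4 per group, grouped by the labels. Per the labels' protocols, Trizol was used for extraction and the SureSelectXT RNA Direct kit, an exon capture method, for the libraries. The submitters' processing notes name HISAT2, StringTie and mm10, without versions. The deposited table gives, per the file headers, an estimated count, FPKM and TPM for each gene and library. The deposited estimated counts are unscaled whole numbers, of which rounding changed 0, and the lowest is 1. The deposited TPM values, which the authors scaled for transcript length, were used for levels between genes and in 1 alternative. The deposited FPKM values, also scaled by the authors, were not used in a test. Capture can change the level of one gene against another but is shared by all samples.

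Counts were tested in R 4.3.3 with edgeR 4.0.16 (TMM scaling, filterByExpr at its defaults, robust quasi-likelihood test, all 12 libraries, 1 coefficient per group), with Benjamini-Hochberg adjustment over the 18551 genes tested and a threshold of 0.05. Intervals of 95% use the test's own standard error and degrees of freedom. Libraries held 55883051 to 70804141 counts. CPM values are counts scaled by TMM to a common library size. Correlations used 100000 permutations. The 10 members and all gene lists were chosen with earlier results of these data known. All 10 members are named. Of the Notch list, genes with an unadjusted p under 0.05 are named, of each other list up to 4 with the smallest p, and per member the 2 genes with the highest r. Cxcr4, Fbln5 and Cxcl12 fall outside that rule and were named after their values were seen.

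Alternatives tried were upper-quartile and RLE scaling, a filter at 1 CPM in at least 4 libraries or no filter, DESeq2 1.42.0, voom with sample weights and limma 3.58.1 on log2(TPM + 0.1), a replicate block, only the groups compared, endothelial or mural marker level as a covariate, the 3 libraries with over 10 times the median muscle marker level left out, and each library left out in turn. An endothelial covariate without CAL replicate 3, and mural correlations without the muscle RNA libraries, were added after seeing the data. The tests were first checked on simulated data. Promoter windows came from RefSeq (GRCm38.p6).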

Additional observations from a re-analysis of the deposited data

Results flagged for a closer look

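The 4 libraries of a group were checked for 1 standing apart by its gap to the nearest other library relative to the group's range, for 10 genes in 3 groups. Of these 30 checks, 3 passed the 95% limit, and chance alone passes about 1 in 20. Nrarp in CAL replicate 1 stood at 7.40 CPM, with the other CAL libraries at 4.93 to 5.35 CPM. Efnb2 in control replicate 3 stood at 13.5 CPM, with the other control libraries at 7.59 to 8.32 CPM. Efnb2 in CAL_Dll4i replicate 3 stood at 6.83 CPM, with the other libraries of its group at 9.13 to 9.42 CPM.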

How the results depend on the processing

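Of the members' results under alternatives, 956 stayed uncalled and, where a fold change was estimated, kept its direction. The test of any difference gives no fold change, so its results have no direction to keep. Of the rest, 28 changed sign and 2 became called, both for Efnb2 with DESeq2. Members called numbered 0 with edgeR in CAL against control and in the test of any difference, and 1 with DESeq2 in each. Genes called in CAL against control numbered 1 with edgeR, 619 with DESeq2, 72 with voom, 0 with only the groups compared and 0 without the libraries with muscle RNA. They numbered 2 with the endothelial covariate, 3 with the mural covariate, 4 with the endothelial covariate and without CAL replicate 3, and 0 (without CAL replicate 1) to 6 (without control replicate 1) with 1 library left out. DESeq2 called 1 gene in CAL_Dll4i against CAL and 61 in CAL_Dll4i against control, where edgeR called 0. For any difference among the 3 groups edgeR called 1 gene, DESeq2 363, limma on TPM 0, the replicate block 0, the fit without muscle libraries 0, the endothelial covariate 0, the mural covariate 3 and the endothelial covariate without CAL replicate 3 called 0. With 1 library left out that count was 0 to 1. The cause of these differences was not tested.

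Every sign change was in an estimate whose unadjusted p missed 0.05. In CAL against control, Hey2 was at -0.030 and Gja4 at -0.072 without the libraries with muscle RNA. With 1 library left out, Gja4 ran from -0.10 to 0.26 and Heyl from -0.46 to 0.039. In CAL_Dll4i against CAL, Hey1 was at -0.011 on TPM, Hey2 at 0.040 and Gja5 at -0.035 without the muscle libraries, and Gja5 at -0.027 with the mural covariate. With 1 library left out, Hey1 ran from -0.049 to 0.16 and Hey2 from -0.20 to 0.11. In CAL_Dll4i against control, Nrarp was at -0.043 with voom and -0.064 on TPM, Lfng at 0.024 with the mural covariate, Mfng at -0.013 on TPM and -0.083 without the muscle libraries, and Efnb2 at 0.082 with voom. With 1 library left out, Efnb2 ran from -0.20 to 0.12, Gja5 from -0.36 to 0.048, Hey2 from -0.011 to 0.49, Lfng from -0.11 to 0.047, Mfng from -0.083 to 0.19 and Nrarp from -0.15 to 0.21.

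The labels do not say that the replicate numbers pair the samples. After group means were removed, r between same-numbered samples of different groups ran from -0.39 to 0.14 over 12 pairs. Between differently numbered samples it ran from -0.31 to 0.44 over 36 pairs. These values cannot tell whether same-numbered samples shared an animal or day. With the replicate block, Efnb2 was at -0.81 (edgeR adjusted p = 0.257) in CAL against control, and no member's call changed. Hey2 had the fewest counts of the members (23 to 62 per library) and the widest spread between replicates, and which of these sets its wide interval was not tested.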

Other observations

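The mean of the 10 genes' standardised levels over the 12 libraries was followed most closely by Igkv8-24, an immunoglobulin variable segment (r = 0.91), then by Apold1 (0.85), an endothelial early-response gene, and by Gja4 (0.85), itself 1 of the 10. Of the 10, Gja4 had the highest r with that mean, and Lfng (-0.09) and Mfng (-0.09) the lowest. Per 1000 CPM of pan-endothelial markers, Mfng was at 20.0 ± 2.96 in control, 28.2 ± 5.14 in CAL and 22.3 ± 6.45 in CAL_Dll4i (SD, n = 4 each), and Lfng at 66.4 ± 14.0, 80.4 ± 10.9 and 67.5 ± 9.08. Lfng had an r of 0.64 with summed B cell markers over the 12 libraries (adjusted permutation p = 0.172 over 40 relations). B cell markers ran from 52.6 to 199 CPM in control, 102 to 214 in CAL and 97.7 to 300 in CAL_Dll4i.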
